A study of Mus musculus with 35 samples.

Results

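The microRNAs miR-144 and miR-451 are the products of neighbouring hairpins that are cut from a shared primary transcript, and 2 of the 376 miRNA assays on the PCR array used here, listed as mmu-miR-144 and mmu-miR-451, measured them. Both were chosen by name. Their levels were followed in the livers of 35 female Big Blue Transgenic mice, aged 6 months at treatment, each on an array of its own. A group of 28 was given a single intraperitoneal injection of N-ethyl-N-nitrosourea (ENU), an alkylating mutagen and carcinogen, at a dose of 120 mg/kg. The 7 others had received dimethylsulfoxide (DMSO), the vehicle. ENU-treated livers were taken on post-treatment day (PTD) 1, 3, 7 and 15 (n = 5 each) and on PTD 30 and 120 (n = 4 each). The control livers, of which 3 are labelled day 1 and 4 day 30, formed 1 group of 7. Big Blue mice carry a bacteriophage lambda transgene as a target for mutation tests, in control and treated animals alike.

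The cluster of miR-144 and miR-451 is known as an erythroid locus. The red cell transcription factor GATA1 drives it, both miRNAs accumulate while erythroblasts mature, and mice that lack the locus or miR-451 make red cells that withstand oxidative stress poorly. The hairpin of miR-451 is unusual in that Argonaute 2 cuts it without the help of Dicer, the enzyme that releases most other mature miRNAs. Mature red cells hold no nucleus and transcribe nothing, but they retain miR-451 in large amounts, so that this miRNA is commonly read as a sign of blood in a tissue sample or of red cell rupture in plasma. Liver is rich in blood and holds few red cell precursors in the healthy adult.

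The sequences are shown because the 2 miRNAs share a transcript and still have little in common in sequence. The seed, bases 2 to 8 of the mature miRNA, is in capitals.
mmu-miR-144-3p: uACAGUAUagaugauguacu
mmu-miR-451a: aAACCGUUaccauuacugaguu
mmu-miR-101a-3p: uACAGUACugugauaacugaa
The first 2 are the mature forms to which the older names miR-144 and miR-451 belong today, since the plate list names no arm. They lie on the plus strand of chromosome 11 of the mouse genome, at chr11:78073047-78073066 and chr11:78073186-78073207 (RefSeq, GRCm38.p6). The seeds of miR-144-3p and miR-451a have the same base at 2 of 7 positions. Among 1679 names of mature mouse miRNAs, none shared bases 2 to 8 with either. Over bases 2 to 7, miR-101a-3p was the only other name with the bases of miR-144-3p, and it is printed for that reason. No other name had bases 2 to 7 of miR-451a.

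The hairpins are printed with the mature miRNA in capitals to show where each lies in its precursor.
Mir144: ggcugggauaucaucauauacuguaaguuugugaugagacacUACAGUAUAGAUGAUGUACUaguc
Mir451a: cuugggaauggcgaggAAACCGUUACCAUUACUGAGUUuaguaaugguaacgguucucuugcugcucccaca
Mir144 spans 66 bases (chr11:78073005-78073070) and Mir451a 72 bases (chr11:78073170-78073241), with 99 bases between them. The mature miR-144-3p occupies positions 43 to 62 of its hairpin, near the 3′ end. The mature miR-451a occupies positions 17 to 38, on the 5′ side and up to the middle of the hairpin.

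Each well gave a threshold cycle (Ct), the number of PCR cycles after which its fluorescence passed a set line, so that 1 cycle less stands for about a doubling of the RNA. The assay of miR-451 crossed early, at a mean Ct of 18.9 over the 35 arrays (range 17.7 to 20.4), and was the 15th lowest of 376 by mean Ct. The assay of miR-144 had a mean Ct of 27.4 (range 25.3 to 28.9) and was the 137th lowest. Neither had a well without a Ct in any array. On single arrays miR-451 ranked between 8 and 38 and miR-144 between 94 and 190. Ct values of different assays also depend on their primers, so these ranks are no ratio of molecules.

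Levels are given below as -ΔCt, the mean Ct of the reference RNAs snoRNA251, snoRNA202, snoRNA142 and U6 minus the Ct of the miRNA on the same array. This is a log2 scale on which a higher value stands for more RNA. The pooled within-group SD was 0.714 for miR-144 and 0.780 for miR-451, near the median of 0.747 over all 376 miRNAs, of which 170 varied less than miR-144 and 203 less than miR-451. Over the 205 miRNAs whose mean Ct did not exceed 30, the median SD was 0.611. Among those 205, 151 varied less than miR-144 and 175 varied less than miR-451.

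The arrays were run in 3 separate periods, according to the run dates in the files, and the periods did not hold the groups evenly. Period 1 held the 3 controls labelled day 1, 4 of the 5 animals of PTD 1, and all animals of PTD 3, 7 and 15. Period 2 held 2 controls, the remaining animal of PTD 1 and all animals of PTD 30 and 120. Period 3 held the last 2 controls. Against the reference RNAs, the control levels of miR-451 differed between these periods by more than they differed within them. The 3 controls of period 1 were at 2.15, 2.08 and 2.24, the 2 of period 2 at 3.42 and 3.32, and the 2 of period 3 at 2.70 and 2.76. No control of 1 period came within the range of another on this scale. The mean Ct of the reference RNAs also differed between the periods, at 21.10 to 21.36, 21.74 to 22.17 and 22.29 to 22.32 in the same controls. When levels were instead taken against the median Ct of each array, the miR-451 controls overlapped, at 10.26, 9.54 and 9.87 in period 1, 10.36 and 9.93 in period 2, and 9.49 and 9.71 in period 3. The controls of miR-144 showed no such grouping, with -5.23, -6.61 and -5.86 in period 1, -5.72 and -6.67 in period 2, and -6.65 and -5.18 in period 3. In the controls, the period of the run and the day on the label cannot be told apart for period 1, which held all 3 controls of day 1 and none of day 30. Each comparison of the pair with the controls is therefore also given within its run period.

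**Figure D1:**
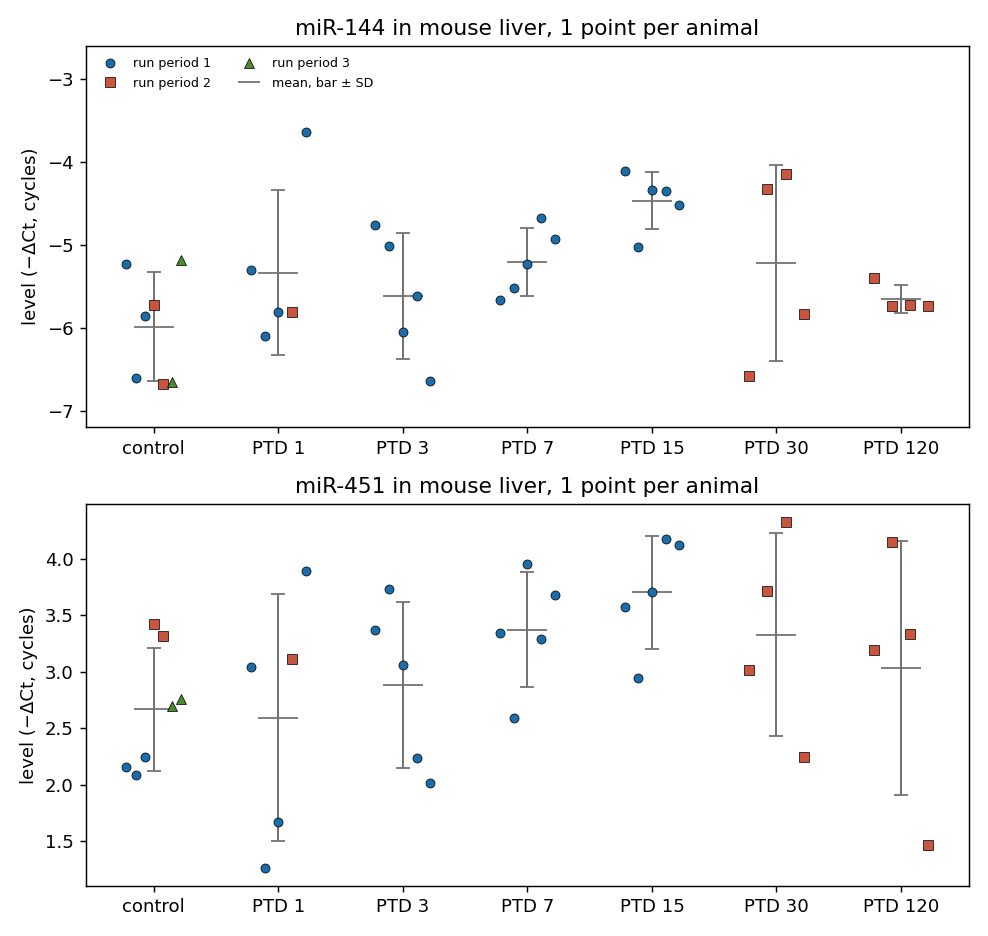
Levels (-ΔCt, in cycles, on a log2 scale) of miR-144 and miR-451 in the 35 livers, 1 point per animal, with the run period as colour and shape, the group mean as a horizontal line and bars of ± SD. On this scale all 5 animals of PTD 15 lie above every control for miR-144, and the miR-451 controls lie in 3 bands that follow the run period. Against the array median neither holds, since miR-144 of PTD 15 overlaps with the controls and the miR-451 bands overlap.

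On average both miRNAs were highest at PTD 15 against the reference RNAs. Before normalization the day moved, with the lowest mean Ct of miR-144 at PTD 1 (26.9, against 27.0 at PTD 15) and that of miR-451 at PTD 30 (18.6, against 18.8). At PTD 15 miR-144 was called higher than in the control group by a log2 fold change of 1.52 (SE 0.35, a fold of 2.87), and miR-451 by 1.04 (SE 0.34, a fold of 2.05). At no other PTD was either miRNA called. A call required a p under 0.01, not adjusted, from the moderated two-sided limma test over all 376 miRNAs, and a fold above 2, the thresholds of the study for a differentially expressed miRNA. In a bulk tissue, more red cells or precursors and more RNA per cell cannot be told apart. All 6 comparisons used the same 7 controls, so they are not independent of each other.

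For miR-144, the 5 animals of PTD 15 were at -4.11, -5.02, -4.33, -4.35 and -4.51, and the 7 controls lay between -6.67 and -5.18 with a median of -5.86. Against the reference RNAs the groups did not overlap, although the lowest animal of PTD 15, at -5.02, was close to the highest control, at -5.18. Of the 370 miRNAs with a value in every array of both groups, 7.84% likewise had all PTD 15 animals above all controls. The limma p was 0.000689, and the adjusted p over 376 miRNAs was 0.0162. The exact permutation test over 792 splits of the 12 animals gave p = 0.00253, the smallest possible being 0.00126. At this PTD 11.4% of the 376 miRNAs were called, and 6.65% were called higher. The increase of miR-144 was the 16th largest of 376. Against the median Ct of each array the groups of miR-144 did overlap, with PTD 15 between 2.21 and 3.24 and the controls between -0.06 and 2.89.

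For miR-451, the animals of PTD 15 were at 3.57, 2.94, 3.71, 4.17 and 4.13, and the controls lay between 2.08 and 3.42 with a median of 2.70. The groups overlapped, since 1 animal of PTD 15 was below the 2 controls of run period 2. The limma p was 0.00842, the adjusted p 0.0635, and the exact permutation p 0.0101. The call of miR-451 thus met the unadjusted threshold and not an adjusted p under 0.05, which 10.4% of the 376 miRNAs met with a fold above 2, 5.85% as increases. It was the 54th largest increase of 376. The call of miR-144 was kept when any of the 12 animals was left out, and that of miR-451 ended in 9 of these 12 fits, with log2 fold changes of 0.92 to 1.23 over the 12. The median change of the 376 miRNAs was 0.36 at PTD 15, so 1.16 of the change of miR-144 and 0.68 of that of miR-451 were in excess of the shift of the array as a whole.

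The reference RNAs moved with this result. Their mean Ct averaged 22.5 in the 5 animals of PTD 15 (SD 0.588) and 21.8 in the 7 controls (SD 0.514), so less reference RNA was measured at PTD 15. The Ct of the miRNAs without normalization differed less. For miR-144 it was lower by 0.75 cycles at PTD 15 (exact permutation p = 0.17), and for miR-451 by 0.26 cycles (exact permutation p = 0.42), and both ranges overlapped with the controls. Within run period 1 the gap of the reference RNAs was wider, since the mean Ct of the 3 controls lay between 21.10 and 21.36 and that of the 5 animals of PTD 15 between 22.07 and 23.55, with no overlap and a difference of 1.28 cycles. The unnormalized Ct of miR-144 was there lower by only 0.15 cycles at PTD 15 (exact permutation p = 0.804) and that of miR-451 by 0.26 cycles (exact permutation p = 0.571), where 5 animals against 3 cannot give a p below 0.0179. The reference RNAs thus contributed 1.28 cycles to each difference in -ΔCt within this period. Since an equal mass of small RNA entered every reaction, the Ct without normalization is relative to that mass, while -ΔCt compares with the reference RNAs. Within run period 1 the exact permutation p of the reference RNAs was 0.0179 at PTD 15. Their mean Ct was higher than in the controls there also at PTD 3, by 0.81 (exact permutation p = 0.0357), and PTD 7, by 1.01 (exact permutation p = 0.0357). At PTD 1 it was higher by 0.21 (exact permutation p = 0.486). Within run period 2 the difference was -0.01 at PTD 30 and 0.003 at PTD 120. Whether a response of the reference RNAs to ENU made these differences was not tested.

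**Figure D2:**
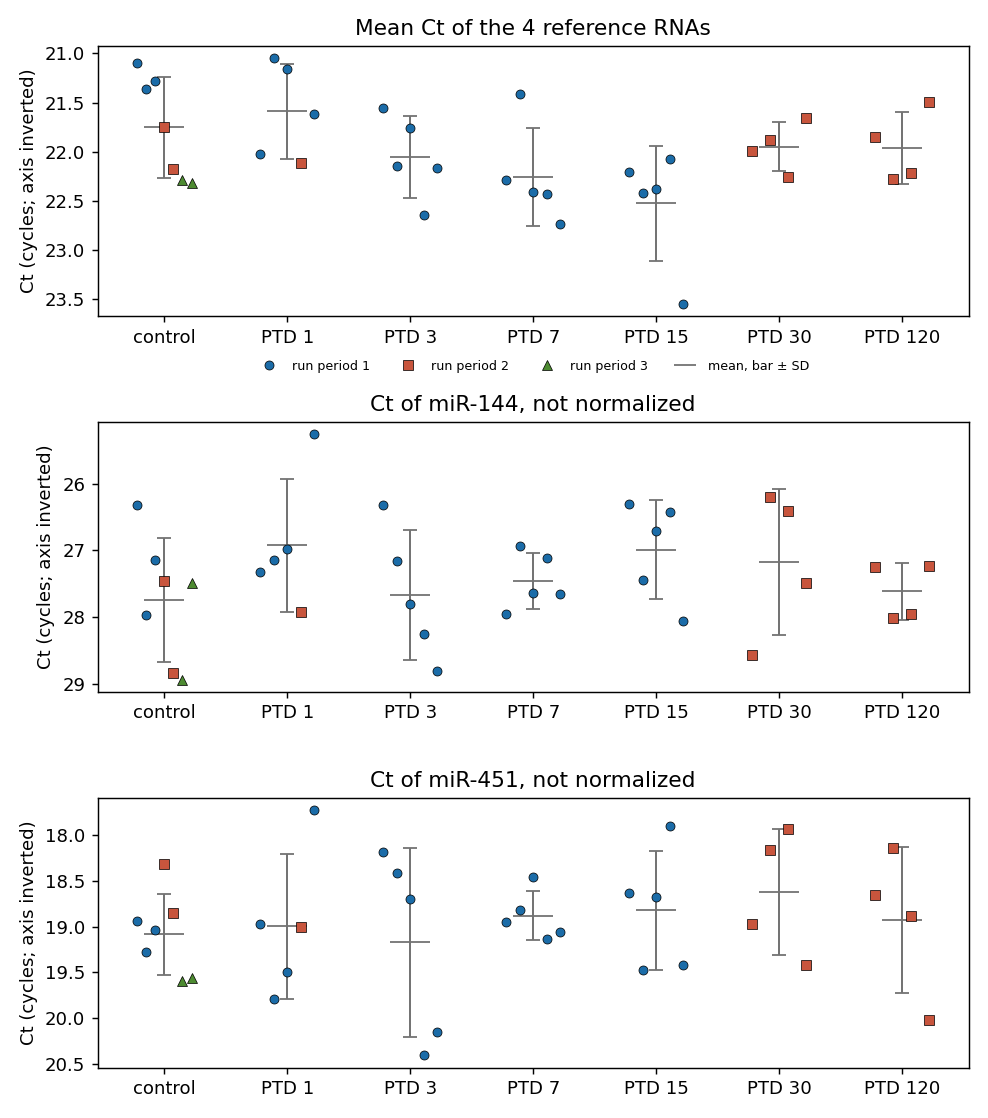
Mean Ct of the 4 reference RNAs (top) and Ct of miR-144 and miR-451 before normalization (middle and bottom), in cycles on inverted axes so that up means more RNA, 1 point per animal, with group means and bars of ± SD. The reference RNAs of PTD 15 averaged 22.5 cycles against 21.8 in the controls, and the unnormalized Ct of both miRNAs overlapped between these groups.

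Against the 3 controls run in the same period, both increases at PTD 15 were kept, at 1.43 for miR-144 (SE 0.37, limma adjusted p = 0.0128) and 1.54 for miR-451 (SE 0.33, limma adjusted p = 0.00753). Against the 4 controls labelled day 30, which were run in periods 2 and 3, miR-144 was called at 1.59 (SE 0.36, limma adjusted p = 0.0347), while miR-451 was at 0.66 and not called (SE 0.31, limma adjusted p = 0.237). Within run period 1, however, 35.6% of the 376 miRNAs were called higher, and the whole array shifted by a median of 1.05. Of the 376, 90 rose by more than miR-144 and 75 by more than miR-451. The pair was therefore among many miRNAs that were higher relative to the reference RNAs in these arrays. When each array was scaled by the median Ct of its 376 miRNAs instead, with all 7 controls, the log2 fold changes at PTD 15 were 1.55 for miR-144 and 1.07 for miR-451, both called, beside 9.31% of miRNAs called higher. With both changes together, miR-451 was still called at 1.06 (SE 0.32, limma adjusted p = 0.0374), beside 14.6% of miRNAs called higher, and miR-144 was not, at 0.95 (SE 0.47, limma adjusted p = 0.148), below its value of 1.00 at PTD 30 under the same setting.

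PTD 7 came next for miR-451. Its animals were at 3.34, 2.59, 3.95, 3.29 and 3.68, with 4 of 5 above the control mean, and 2 above every control. The log2 fold change was 0.70 (SE 0.34, limma adjusted p = 0.225, exact permutation p = 0.0518). Against the controls that shared its run period it was 1.21 and called (SE 0.34, limma adjusted p = 0.0192), beside 26.9% of all miRNAs called higher there. With the median Ct of each array and all 7 controls it was 1.01 and called (limma adjusted p = 0.00422), beside 11.7%. With both changes together it was 0.996, just under a fold of 2 and not called, beside 21%. It was lower in other settings, at 0.32 with the controls labelled day 30 (limma adjusted p = 0.559) and 0.20 with no normalization (exact permutation p = 0.391), and was called in neither. The animals of miR-144 at PTD 7 were at -5.67, -5.52, -5.24, -4.68 and -4.92. All 5 lay above the control mean and 2 above every control, and the log2 fold change was 0.78 (SE 0.36, limma adjusted p = 0.189, exact permutation p = 0.048). It was not called in any of these settings, with 0.69 against the controls that shared its run period, below the median of 0.84 for all miRNAs there. It was 1.08 with the median Ct of each array, 0.48 with both changes together, beside a median of 0.62, and 0.85 with the controls labelled day 30. With no normalization it was 0.28, and -0.32 when only run period 1 was used. At PTD 7, 9.84% of the 376 miRNAs were called in either direction.

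At the earliest days the animals of a group lay far apart. At PTD 1 miR-144 was at -5.30, -6.10, -5.81, -5.81 and -3.64, and miR-451 at 3.04, 1.26, 1.67, 3.11 and 3.89. Replicate 5 was the highest of its group for both and held the highest miR-144 level of all 35. Replicates 2 and 3 had 2 of the 3 lowest miR-451 levels of the study. The log2 fold changes were 0.65 for miR-144 (SE 0.47, limma adjusted p = 0.669) and -0.07 for miR-451 (SE 0.47, limma adjusted p = 0.964), while the median over all miRNAs was -0.37 and 1.33% of them were called. The change of miR-144 was the 10th largest increase of 376 and 1.02 above that median. With the median Ct of each array it was 1.03 and not called (SE 0.50, limma adjusted p = 0.781). At PTD 3 miR-144 was at -4.76, -5.01, -6.05, -5.61 and -6.64, and miR-451 at 3.37, 3.74, 3.06, 2.24 and 2.01. The animals with the highest levels were again the same for both miRNAs, replicates 1 and 2. The log2 fold changes were 0.37 (SE 0.42, limma adjusted p = 0.844) and 0.22 (SE 0.39, limma adjusted p = 0.928), beside 2.13% of miRNAs called. Against the controls of run period 1, miR-144 was at 0.68 at PTD 1 and 0.28 at PTD 3, and miR-451 at 0.30 and 0.72. Neither was called there, beside 1.06% of miRNAs called higher at PTD 1, where 4 of the 5 animals entered, and 7.71% at PTD 3.

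At PTD 30 the group was split for both members. For miR-144 the animals were at -6.58, -4.32, -4.15 and -5.83, and for miR-451 at 3.02, 3.72, 4.33 and 2.24. Replicates 2 and 3 were above every control for both miRNAs, and replicates 1 and 4 were within the control range. The log2 fold changes were 0.77 (SE 0.51, limma adjusted p = 0.448) and 0.66 (SE 0.43, limma adjusted p = 0.444), with a median of 0.54 over all miRNAs and 1.60% called. With the median Ct of each array they were 0.36 and 0.25, neither called, beside a median of 0.13 over all miRNAs. At PTD 120 miR-144 was the tightest of all groups, at -5.40, -5.74, -5.73 and -5.73, with an SD of 0.167, whereas miR-451 ran from 1.47 to 4.14 with an SD of 1.13 (levels of 3.20, 4.14, 3.33 and 1.47). The log2 fold changes were 0.34 (SE 0.38, limma adjusted p = 0.66) and 0.37 (SE 0.48, limma adjusted p = 0.697), below the median of 0.46 over all miRNAs, with 1.33% called. Against the 2 controls of run period 2, miR-451 was at -0.04 at PTD 30 and -0.33 at PTD 120 and miR-144 at 0.97 and 0.55. Neither was called, beside 0.798% of miRNAs called higher at PTD 30 and 0% at PTD 120 in that period.

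**Figure D3:**
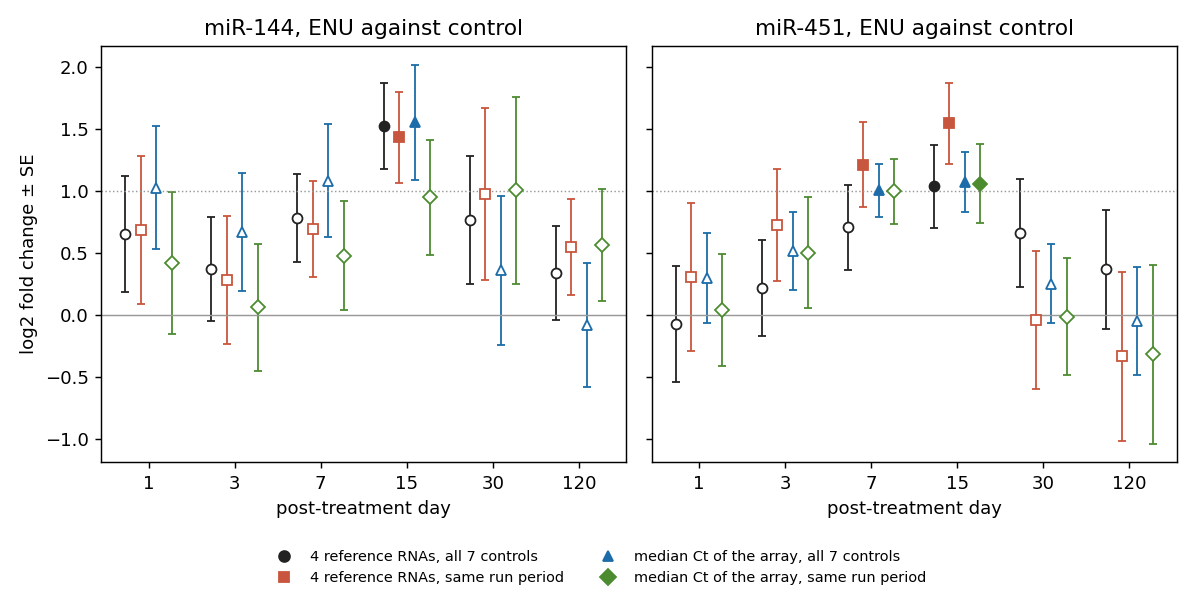
Log2 fold changes (± SE) of miR-144 and miR-451 on each post-treatment day against the control group under 4 ways of scaling and choosing controls, with filled symbols where the miRNA was called. The dotted line marks a fold of 2, and PTD 15 is the day with the highest value for both miRNAs with the reference RNAs and all controls (1.52 and 1.04).

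Ordered by mean level, miR-144 ran from the controls (-5.99) over PTD 120 (-5.65), PTD 3 (-5.61), PTD 1 (-5.33), PTD 30 (-5.22) and PTD 7 (-5.20) to PTD 15 (-4.46). Only the last neighbours in this order differed at an exact permutation p under 0.05, PTD 15 being 0.74 above PTD 7 (p = 0.0238, smallest possible 0.00794, over 252 splits), and the ranges of even these groups overlapped. In limma that step had an adjusted p of 0.660 and was not called, and 1.60% of miRNAs were. With the median Ct of each array the step was 0.47 for miR-144 (SE 0.27, limma adjusted p = 0.771). The same step of miR-451 was 0.06 there, beside 0.33 with the reference RNAs. For miR-451 the order was PTD 1 (2.59), control (2.67), PTD 3 (2.88), PTD 120 (3.04), PTD 30 (3.33), PTD 7 (3.37) and PTD 15 (3.70), and no neighbours in it differed at that level, with exact permutation p values between 0.325 and 0.976. None of the changes between consecutive PTDs was called for either miRNA, where 2.93% of the 376 miRNAs were called from PTD 1 to 3, 1.06% from PTD 3 to 7 and 0.798% from PTD 30 to 120. After PTD 15, miR-144 was lower by 0.76 at PTD 30 (SE 0.50, limma adjusted p = 0.344) and miR-451 by 0.38 (SE 0.44, limma adjusted p = 0.628). That step had 19.1% of all miRNAs called, and it also passed from run period 1 to run period 2. With the median Ct of each array it was -1.20 for miR-144 (limma adjusted p = 0.091) and -0.82 for miR-451 (limma adjusted p = 0.101), and neither was called.

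The difference between the Ct of miR-144 and that of miR-451 on an array needs no reference RNA and shows whether the members changed by unequal amounts. It was 8.65 ± 0.908 cycles in the controls (SD, n = 7), with single animals between 7.38 and 9.99. At PTD 15 it was 8.17 ± 0.402 (SD, n = 5), a difference of -0.49 (exact permutation p = 0.295). The other PTDs differed from the controls by -0.73 to 0.03, with exact permutation p values from 0.158 to 0.970. The direction turned with the controls used. At PTD 15 the difference was 0.11 against those of the same run period (exact permutation p = 0.786) and -0.93 against those labelled day 30 (exact permutation p = 0.0873). At PTD 1 it was -0.13 against the controls labelled day 1 (exact permutation p = 0.804) and -1.18 against those labelled day 30 (exact permutation p = 0.0635). Within their run periods the earlier groups differed by -0.38 (PTD 1), 0.44 (PTD 3) and 0.52 (PTD 7), and the later ones by -1.02 (PTD 30) and -0.88 (PTD 120), with exact permutation p values from 0.2 to 0.371. At PTD 30 and 120 only 2 controls entered, and no exact permutation p below 0.0667 was possible there. An unequal change of the 2 miRNAs was thus not detected at any PTD, in a design in which the controls alone spanned a 6.10-fold range of this ratio.

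Across animals, the 2 miRNAs rose and fell together to a moderate degree. To remove the differences between groups, each level was taken as its deviation from the group mean, and labels were permuted within groups. Over the 35 animals Pearson's r was 0.523 (permutation p = 0.00579, adjusted p = 0.0141 over a family of 17 relations) and Spearman's rho was 0.473 (permutation p = 0.0133, adjusted p = 0.0285). Without the 2 animals farthest from the median of miR-144, r was 0.459. The deviations of both miRNAs had the same sign in 22 of the 35 animals. With each array centred on its median Ct r was 0.469, and with Ct before normalization it was 0.562, so the relation was of similar size without the reference RNAs. Deviations from the means of group and run period gave r = 0.618 (permutation p = 0.00063).

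Among the 28 ENU-treated animals r was 0.632 (permutation p = 0.00133), and 19 of 28 deviated in the same direction for both miRNAs. Among the 7 controls r was -0.126 (exact permutation p = 0.767 over 5040 pairings), and 3 of 7 deviated in the same direction. The difference between these correlations was not tested, and 7 animals leave it imprecise. The controls also came from 3 run periods, between which their miR-451 levels differed, so their r mixes animals and periods. With the means of group and run period removed, r over all 35 animals was 0.618. Leaving out each animal in turn gave r between 0.428 and 0.576.

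**Figure D4:**
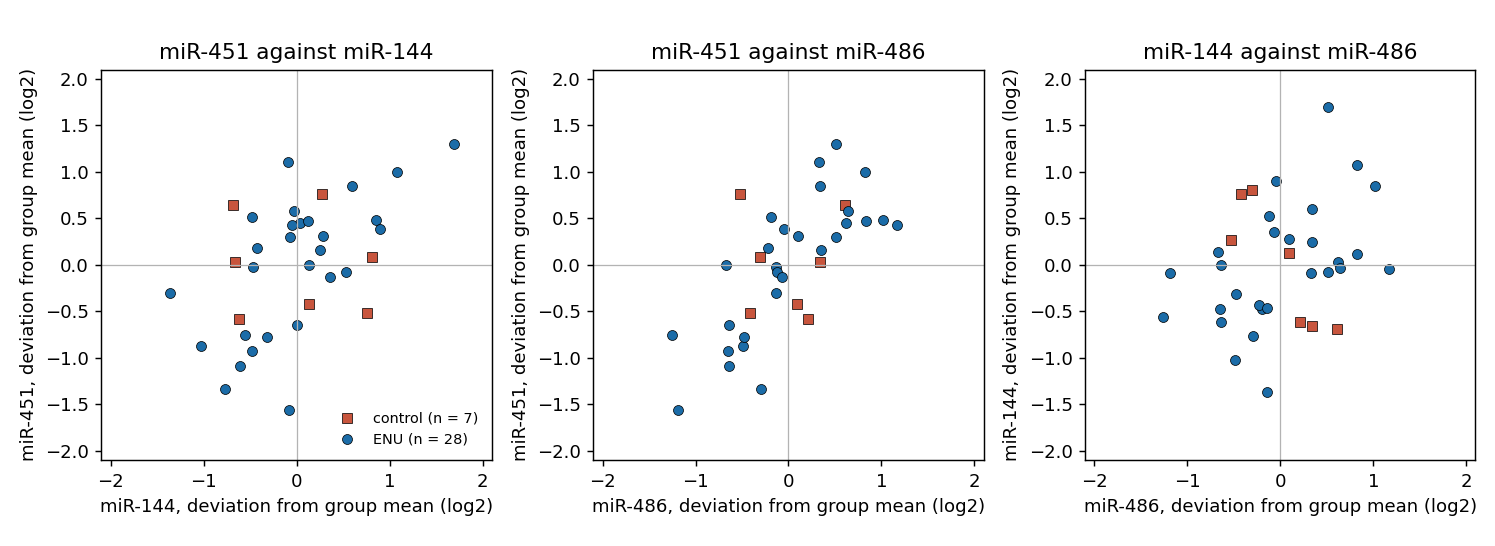
Deviation of each animal from its group mean (log2 units) for miR-451 against miR-144 (left), miR-451 against miR-486 (middle) and miR-144 against miR-486 (right), with 28 ENU-treated animals as circles and 7 controls as squares. In the left panel r is 0.632 in the ENU-treated animals and -0.126 in the controls, whose deviations also hold differences between their 3 run periods. The middle panel is the closest relation of the 3 (r = 0.706 over all 35).

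As a description, the partner on the transcript was not the closest companion of either miRNA. Ranked by r among the other miRNAs over the same 35 arrays, miR-451 was the 22nd closest to miR-144, and miR-144 was the 70th closest to miR-451. The median r with the other miRNAs was 0.132 for miR-144 and 0.335 for miR-451. With each array centred on its median Ct these medians were 0.006 and 0.085, and the ranks 36 and 10.

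The closest companion of miR-451 among all other miRNAs was miR-486, a miRNA from an intron of the Ankyrin-1 gene that is abundant in red cells, on both scales. Its r with miR-451 was 0.706 with the reference RNAs (permutation p = 1e-05, the smallest that 100000 permutations can give, adjusted p = 0.00017) and Spearman's rho was 0.697. The value was 0.674 without the 2 farthest animals and 0.607 with each array centred on its median Ct. In 27 of the 35 animals miR-451 and miR-486 deviated in the same direction, 24 of the 28 ENU-treated animals and 3 of the 7 controls. As a description, r was 0.781 in the former and 0.020 in the latter, and the difference was not tested. The r of miR-144 with miR-486 was 0.310 (permutation p = 0.0657, adjusted p = 0.124), which joined 0.490 in the 28 ENU-treated animals and -0.872 in the 7 controls. Both deviated in the same direction in 19 of the former and 1 of the latter. With each array centred on its median Ct r was 0.341 and 0.207, so the opposite sign in the controls was not kept, and these differences were not tested. The r of the controls with miR-486 likewise mixes 3 run periods.

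The other miRNAs chosen for this family of relations were compared against the reference RNAs. With miR-16, which red cells hold in quantity but which most cells express, r was 0.608 for miR-451 (adjusted p = 0.0017) and 0.092 for miR-144. With miR-92a of the miR-17-92 family, r was 0.618 for miR-451 (adjusted p = 0.00365) and 0.148 for miR-144. With the myeloid miR-223 it was 0.546 (adjusted p = 0.01) and 0.231, and with the endothelial miR-126-3p 0.567 (adjusted p = 0.00365) and 0.076. With miR-122, the dominant miRNA of hepatocytes, the values were 0.334 (adjusted p = 0.0305) and -0.014. The 5 values of miR-144 had adjusted p values from 0.543 to 0.915, and the differences between the members were not tested. Outside this family, as a description, the red cell miRNAs miR-25, miR-210 and miR-363 had r = 0.597, -0.297 and 0.183 with miR-451. The hepatocyte miRNAs miR-192 and miR-194 had r = 0.654 and 0.629 with it, and the other white cell miRNAs lay between 0.363 and 0.674. With miR-144 the same miRNAs lay between -0.012 and 0.676.

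All these levels share the reference RNAs as divisor, and their mean Ct itself went with miR-451 (r = 0.483, adjusted p = 0.0118) and not detectably with miR-144 (r = 0.022, adjusted p = 0.915). The part of the reference RNAs in the relations of miR-451 was not tested further, but with each array centred on its median Ct the r of miR-451 was lower for these partners, at 0.373 for miR-16, 0.392 for miR-92a, 0.332 for miR-223, 0.311 for miR-126-3p and 0.089 for miR-122. The r of miR-144 was -0.166, 0.110, 0.094, -0.164 and -0.168 in the same order. For miR-25, miR-210 and miR-363 the r with miR-451 on that scale was 0.356, -0.495 and -0.124. For miR-192 and miR-194 it was 0.474 and 0.411. Not all miRNAs of blood cells stood closer to miR-451. On that scale r was 0.672 with miR-144 and 0.264 with miR-451 for miR-142-5p, and 0.596 and 0.515 for miR-142-3p. Every other white cell miRNA compared, miR-223, miR-150 and miR-146a among them, had a higher r with miR-451 than with miR-144 on that scale. The difference in Ct between the reverse transcription control wells of the same array, which holds no miRNA, went detectably with neither member. Its r was 0.024 for miR-451 and -0.099 for miR-144.

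The miRNAs whose deviations were closest to the mean of the pair, among 199 whose mean Ct did not exceed 30 and with a value in all 35 arrays, were miR-186 (r = 0.733), the blood cell miRNA miR-142-3p (0.717), miR-362-3p (0.631), miR-140* (0.628) and miR-30c (0.626). The median of the 199 was 0.383. With each array centred on its median Ct, miR-186 (0.662) and miR-142-3p (0.651) again led, followed by miR-15a (0.561), miR-142-5p (0.559) and miR-140* (0.546), with a median of 0.172. The miR-101a assay, whose target shares bases 2 to 7 with miR-144, had r = 0.454 with miR-144, the 35th closest, and 0.329 with miR-451. The miR-101b assay had 0.503 and 0.576 in the same order. With each array centred on its median Ct the values were 0.467 and 0.083 for miR-101a, and 0.579 and 0.321 for miR-101b.

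The other red cell miRNAs were described beside the pair. The list held miR-486, miR-16, miR-92a, miR-25, miR-210 and miR-363, and 0 of 6 were called at each of the 6 PTDs, at which 1.33% to 11.4% of all 376 miRNAs were called. At such shares a count of 0 of 6 sets the list apart from nothing. Their log2 fold changes at PTD 15 lay between 0.38 and 0.87, all 6 above 0, with a median of 0.62 beside 0.36 for all miRNAs. The highest was that of miR-92a, 0.87 (limma adjusted p = 0.0635), whose fold was under 2. For miR-486 the value was 0.81 (SE 0.42, limma adjusted p = 0.224). Its 5 animals of PTD 15 ranged from -6.89 to -4.46 with a median of -5.70 and overlapped with the controls, which ranged from -6.96 to -5.83 with a median of -6.34. The list median was -0.42 at PTD 1 and 0.59 at PTD 7. It was 0.50 at PTD 30 and 0.58 at PTD 120.

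Within run period 1 the same list stood higher, as did the array. At PTD 15 its median was 1.26, beside 1.05 for all miRNAs, and miR-16 (1.34), miR-92a (1.25) and miR-25 (1.55) were called, beside 40.4% of the 376 miRNAs. At PTD 7 miR-92a and miR-25 were called, with a list median of 1.15 beside 0.84 for all miRNAs and 33% of them called. Within their run periods, 0 of the 6 were called at PTD 1, 3, 30 or 120, beside 1.06%, 7.98%, 0.798% and 0% of the 376 miRNAs, so these counts say nothing about the list.

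Of 5 miRNAs reported to fall as red cells mature, miR-222 was called higher at 3 PTDs against all 7 controls. Its log2 fold change was 1.31 at PTD 3 (adjusted p = 0.351), 1.34 at PTD 7 (adjusted p = 0.0482) and 1.69 at PTD 15 (adjusted p = 0.0154), where 2.13%, 9.84% and 11.4% of all miRNAs were called. Within run period 1 the values of miR-222 were 0.84, 0.87 and 1.22, and none of the 3 was called. The pair of miR-221 and miR-222 is also known to rise in dividing cells of many tissues. The other 4, miR-221, miR-155, miR-24 and miR-191, were not called at any PTD against all 7 controls, with values from 0.49 to 0.92 at PTD 15. Within run period 1, miR-221 and miR-191 were called at PTD 7 and 15, 2 of the 5 beside 33% and 40.4% of all miRNAs. The list of miRNAs high in mature red cells and the list of those that fall were both above 0 at PTD 15, 6 of 6 and 5 of 5, in a comparison in which the median of all miRNAs was 0.36.

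The markers of other cells gave few calls against all 7 controls. Of 6 white cell miRNAs, miR-150 of lymphocytes was lower at PTD 1 (log2 fold change -1.72, adjusted p = 0.108), as was miR-146a (-1.33, adjusted p = 0.669), and miR-142-3p was higher at PTD 120 (1.35, adjusted p = 0.446), beside 1.33% of all miRNAs called on each of these days. Within their run periods these values were -1.06, -0.67 and 0.52, and none of the 3 was called. The only white cell call within a run period was that of miR-142-5p, which was lower at PTD 7 by a log2 fold change of -1.42, beside a median of 0.84 for all miRNAs and 33% of them called. At PTD 15 the white cell median was -0.21 with 0 of 6 called, and within run period 1 it was 0.47, again with 0 of 6 called. Both endothelial miRNAs, miR-126-3p and miR-126-5p, and all 3 hepatocyte miRNAs, miR-122, miR-192 and miR-194, were uncalled at each PTD against all 7 controls. At PTD 15 the endothelial log2 fold changes were 0.55 and 0.70, close to those of the red cell list, and the hepatocyte values lay between -0.58 and 0.48. Within run period 1 the endothelial values at PTD 15 were 1.47 and 1.66, both called, and the hepatocyte values lay between 0.13 and 1.35, with miR-192 called, beside 40.4% of all miRNAs. The same 3 were called at PTD 7, beside 33%, and miR-126-5p and miR-192 at PTD 3, beside 7.98%. The tissue label was checked with miR-122, the hepatocyte marker, which had a mean Ct of 14.5. A part of blood vessels or trapped blood in the levels of the pair was not tested, and whether the livers were perfused is not given in the sources used here.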

How the data were processed

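Small RNA from 35 livers was assayed by SYBR Green real-time PCR on 384-well arrays, and the authors deposited 1 file per array with the Ct of each well from SDS (version 2.3), at a threshold line of 0.15 over 40 cycles and without normalization. A Ct behaves as a log2 scale and was used as such from the deposited values. No sequencing depth applies, and 4 to 7 arrays per group limit the precision. Well names came from the plate list of the supplement. By label 3 controls belong to day 1 and 4 to day 30, while the Methods have 4 and 3, so the 7 controls were kept together. For replicate 3 of PTD 3 the deposited Ct was used, although a supplementary sheet lists other values.

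Levels were -ΔCt against the mean of 4 reference RNAs. Each ENU group was compared with the controls over all 376 miRNAs in limma (version 3.58.1, R version 4.3.3), 1 fit per day, moderated two-sided tests, with Benjamini-Hochberg adjustment over 376. A miRNA was called at a p under 0.01 and a fold above 2, thresholds of the Methods, whose test was a t-test. Undetermined wells (15 in 11 arrays, none of a member) were missing. Single miRNAs were also tested by exact permutation over all splits, and correlations with 100000 permutations within groups, in Python (version 3.11.15) with numpy (version 2.4.6), scipy (version 1.17.1) and pandas (version 2.3.3); figures used matplotlib (version 3.10.9). The fits were tested on simulated data. The members, the 22 miRNAs of the cell lists and the tests were chosen with earlier results of these data known. Named beside the members were list miRNAs called at any day, those of the correlations, and the 5 miRNAs closest to the mean of the pair. After the data were examined, miR-101a was added for its seed, with miR-101b beside it. Also added then were 4 alternatives, Ct with no normalization, this with the same run period, the same run period with the median Ct of each array, and the same run period for the cell lists. Alternatives also included leaving out each animal, each set of 3 reference RNAs, run periods and controls of 1 day label. Animals were taken as separate samples, as labelled.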

Additional observations from a re-analysis of the deposited data

Results flagged for a closer look

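Over 21 sets of 4 to 7 animals, the 7 groups for miR-144, miR-451 and the difference of their Ct, 1 animal stood apart from the rest of its group. The level of miR-144 in replicate 1 of PTD 120 was -5.40, and the nearest other animal of that group was at -5.73, so that the gap made up 0.961 of the range of the 4 animals. The other 3 animals lay between -5.74 and -5.73, and the whole group lay within the range of the controls. Chance alone marks about 5% of such sets.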

How the results depend on the processing

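Of the 22 alternatives run for each comparison with the controls, apart from leaving out animals, the call of miR-144 at PTD 15 ended in 3, Ct with no normalization (0.75), this within the same run period (0.15) and the same run period with the median Ct of each array (0.95). The call of miR-451 at PTD 15 ended in 11, some with nearly the same change and a p or a fold past the threshold. These were an adjusted p under 0.05 and the exact permutation test (1.04 in both), 1 fit of all 7 groups (1.04), Ct with no normalization (0.26, also in the same run period), the reference RNAs without snoRNA202 (1.08), snoRNA142 (1.01) or U6 (0.85), the controls labelled day 30 (0.66), the reverse transcription control wells as a covariate (0.97), and the replicate block (0.89). In the replicate block the label numbers, which belong to different mice and did not pair them (correlations of -0.19 to 0.52), changed no other call of a member. At PTD 7 miR-451 became called with the median Ct of each array (1.01) and with the controls labelled day 1, the same run period or the run period as a block (1.21 in each). All other changes of sign were in differences that were not called, and for all of these the cause was not tested. With no normalization in the same run period, in which no exact permutation p can pass 0.01, miR-144 was -0.53 at PTD 3 and -0.32 at PTD 7, and miR-451 was 0.091 (PTD 1), -0.084 (PTD 3), -0.032 (PTD 30) and -0.34 (PTD 120). For miR-451 at PTD 1, at -0.07 with the reference RNAs, the value was 0.087 with no normalization, 0.30 with the median Ct, 0.039 without snoRNA202, 0.43 with the controls labelled day 1, 0.30 in the same run period, 0.039 with that and the median Ct, 0.15 with the run period as a block and 0.0096 with the covariate. At PTD 3 it was -0.086 with no normalization and -0.16 with the controls labelled day 30. At PTD 30 it was -0.043 in the same run period and as a block, and -0.014 with the median Ct added. At PTD 120 it was -0.051 with the median Ct, -0.012 with the controls labelled day 30, -0.33 in the same run period and as a block, and -0.32 with the median Ct added, and miR-144 was -0.083 with the median Ct. The log2 ratio of miR-451 to miR-144, against the controls labelled day 1 or the same run period, was 0.44 at PTD 3, 0.52 at PTD 7 and 0.11 at PTD 15. It was 0.49 at PTD 30 with the controls labelled day 1, and at PTD 120 -0.42 with those of day 30 and -0.88 in the same run period. The correlation of the pair was -0.126 in the control animals alone, which came from 3 run periods.

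The number of the 22 listed miRNAs that were called moved with the controls, and so did the share of all 376. At PTD 1 it was 2, with 0 by adjusted p, 1 with the median Ct, without snoRNA202 or by the methods' t-test, 0 with the controls labelled day 1 or in the same run period, and 8 with those of day 30 (13% of all). At PTD 3 it was 1, with 0 by adjusted p, without snoRNA251, without snoRNA142 or by the methods' t-test, and 2 with the median Ct, without snoRNA202, with the controls labelled day 1 or in the same run period (7.98% of all in the last 2). At PTD 7 it was 1, with 3 by the median Ct (18.1% of all) and 8, or 36.4% of the list, with the controls labelled day 1 or in the same run period (33% of all). At PTD 15 it was 1, with 3 without snoRNA251 and again 8 with the controls labelled day 1 or in the same run period (40.4% of all). At PTD 30 it was 0, with 10 for the controls labelled day 1 (37.5% of all). At PTD 120 it was 1, with 10 for the controls labelled day 1 (27.9% of all), 2 without snoRNA202, and 0 by adjusted p, the median Ct, without snoRNA142, without U6, by the methods' t-test, with the controls labelled day 30 or in the same run period.

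When each animal was left out in turn, miR-144 at PTD 15 stayed called in all 12 fits (1.41 to 1.66). The call of miR-451 at PTD 15 ended in 9 of 12 (0.92 to 1.23), and was kept without controls 4 or 5, the 2 of run period 2, or without replicate 2 of PTD 15. No other comparison with the controls became called, but single animals moved several by over 1.5 times. At PTD 1 miR-144 was 0.23 without replicate 5. At PTD 3 miR-144 ran from 0.16 without replicate 1 to 0.63 without replicate 5, and miR-451 from 0.0031 without replicate 2 to 0.43 without replicate 5. At PTD 30 miR-144 ran from 0.41 without replicate 3 to 1.22 without replicate 1, and miR-451 from 0.32 without replicate 3 to 1.02 without replicate 4. At PTD 120 miR-144 was 0.22 without control 5. The values of miR-451 ran from -0.40 to 0.26 at PTD 1, from -0.0018 to 0.89 at PTD 120, from -0.044 to 0.61 for PTD 3 against PTD 1 and from -0.66 to 0.23 for PTD 120 against PTD 30, and those of miR-144 from -0.50 to 0.14 for PTD 3 against PTD 1. The other steps between consecutive days kept their sign, with ranges of 0.15 to 0.62 (miR-144, PTD 7 against 3), 0.27 to 0.70 (miR-451, the same step), 0.14 to 0.52 (miR-451, PTD 15 against 7), -1.11 to -0.30 and -0.71 to -0.015 (miR-144 and miR-451, PTD 30 against 15), and -0.88 to -0.071 (miR-144, PTD 120 against 30). The log2 ratio ran from -0.37 to 0.066 at PTD 3, from -0.29 to 0.15 at PTD 7, from -0.70 without control 1 to -0.26 without control 5 at PTD 15, from -0.46 to 0.12 at PTD 30 and from -0.37 to 0.53 at PTD 120. No depth applies to these arrays, and the standard errors of 0.34 to 0.51 set what groups of 4 and 5 could show.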
